A study of Mus musculus with 8 samples.

Results

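The 9 genes described here, Klf2, Klf3, Klf13, S1pr1, Il7r, Foxo1, Foxp1, Btg1 and Tob1, hold lymphocytes in a resting state or govern how they leave lymphoid organs. Probe sets annotated to 1 of these symbols alone were taken, and the brightest by mean over the 8 arrays stood for the gene. All 9 genes were measured and passed the filter on dim probe sets, out of 18193 gene symbols on the array and 11189 genes tested. The genes were listed by name, with earlier results of these data known.

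RNA of splenocytes from male C57/BL6 mice was hybridised to Affymetrix Mouse 430 2.0 arrays, with 1 array per mouse. The 4 groups were HMGA1a transgenic mice (TG) of 12 months, wild type littermates (WT) of 12 months, TG mice of 2 months and WT mice of 2 months, with 2 mice each, numbered as biologic replicate 1 and 2. The transgene encodes HMGA1a, a chromatin protein that bends DNA at stretches rich in A and T, and the promoter that drives it is not given in the sources used here. The series' design text places the younger age before lymphoid tumours and the older age after they are established.

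Resting B and T cells circulate through the spleen, and a small set of transcription factors keeps them out of the cell cycle. In mouse lymphocytes the forkhead factor Foxo1 turns on Klf2, which in turn supports S1pr1, the receptor that lets cells follow sphingosine 1-phosphate out of the organ. Foxo1 also supports Il7r, the receptor chain that passes the survival signal of interleukin 7, while Foxp1 opposes Foxo1 at that gene in mouse T cells. Btg1 and Tob1 belong to the BTG/TOB family, which restrains growth and recruits the CCR4-NOT complex that shortens mRNA tails.

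Levels are given as linear signals of a probe set, and fold changes are on the log2(signal + 16) scale. The T cell and B cell markers analysed had all passed the filter on dim probe sets. Their lowest signal on any array was 195 for T cell and 99.5 for B cell markers. Arrays differed by replicate number. The change between the replicates was alike in the 4 groups, with a Pearson r of 0.464 to 0.654 over 11189 genes for the 6 possible pairs. Values within each replicate are therefore given beside the fitted ones. The Gapdh control ratio of 3′ over 5′ signal, a sign of RNA quality, was 0.843 and 1.21 in TG mice of 12 months, against 1.25 and 1.73 in WT mice of 12 months. At 2 months it was 1.07 and 1.48 in TG mice and 1.01 and 1.39 in WT mice. The beta-actin ratio was 1.20 and 1.10 in TG mice and 1.48 and 1.31 in WT mice of 12 months, and 1.21 and 1.14 in TG mice and 1.24 and 1.18 in WT mice of 2 months. Both ratios were lower in TG than in WT mice of 12 months within each replicate. In replicate 2 the Gapdh ratio was higher and the beta-actin ratio lower in every group, and their part in the results below was not tested. Precision is limited by the number of arrays, and because whole spleen cell suspensions were measured, fewer cells of a type and less RNA per cell cannot be told apart.

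TG mice were first compared with WT mice at 12 months, the age of established tumours. Most of the 9 genes had a lower level in TG spleens, with Klf2, Klf13 and Foxp1 furthest down, while Il7r and S1pr1 were higher. The sizes changed when 1 array was left out. That also unbalances the replicate numbers, so single mice and the replicate difference cannot be told apart in these ranges. They were -0.66 to -0.18 for Klf2, -0.68 to -0.013 for Klf13, -0.50 to -0.16 for Foxp1 and -0.35 to -0.036 for Btg1. The lowest value came when the TG mouse numbered 2 at 12 months was left out and the highest when that numbered 1 was. The median log2 fold change of the 9 genes was -0.19 (-0.31 in replicate 1 and -0.074 in replicate 2), beside -0.034 over all genes tested. In 7 of 9 genes the fitted value was below 0, as in 54.8% of all genes. Klf2, Klf13, Foxo1, Foxp1, Btg1 and Tob1 were lower within both replicates, which is 6 of 9, against 35.5% of all genes. S1pr1 and Il7r were higher within both, as were 26.9% of all genes. In 1 of 9 genes, Foxp1, both TG mice lay below both WT mice, where 19.9% of all genes did so, and in none did they lie above, against 14.3%. None of the 9 passed the test (limma, smallest adjusted p = 0.735), nor had any an unadjusted p under 0.05, and among all genes 0% were called and 7.73% had an unadjusted p under 0.05. With the replicate number as a block, Klf2 alone had an unadjusted p under 0.05 (limma, adjusted p = 0.120), where 19.9% of all genes did and 0.0447% passed the test. The count of the 9 genes with an unadjusted p under 0.05 was 2 with averaged probe sets and 1 with quantile scaling. Among all genes 930 and 862 had one under these settings, against 865 in the main fit.

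**Figure D1:**
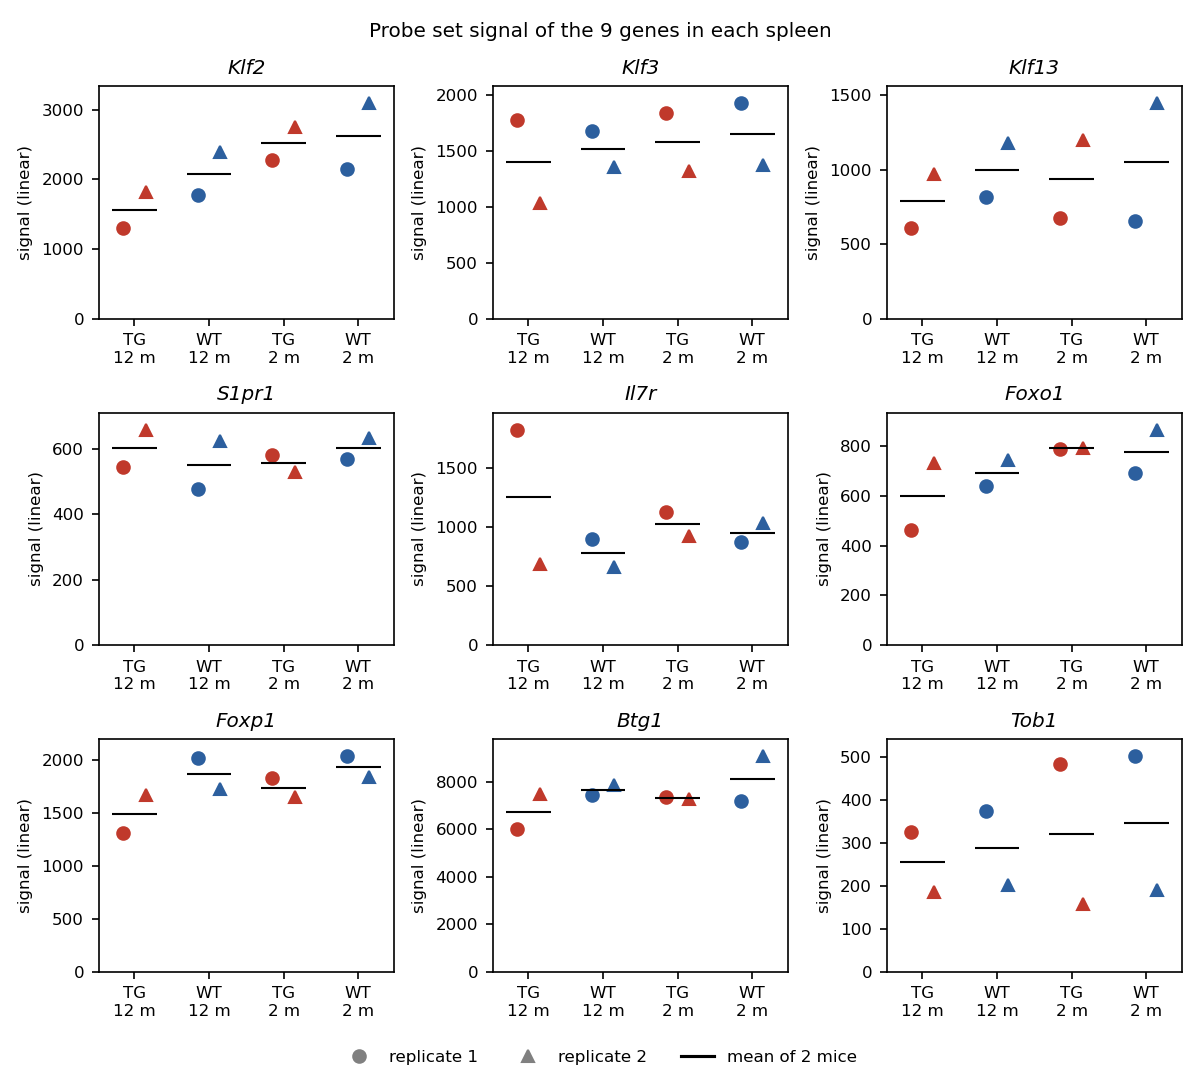
Probe set signal on a linear scale from 0 for each of the 9 genes, with TG and WT mice of 12 and of 2 months along each axis, TG in red, WT in blue, circles for replicate 1, triangles for replicate 2 and bars for the mean of 2 mice. The Klf2 signal of TG mice of 12 months was 1296 and 1817, and the Il7r signal of 1820.2 belonged to the replicate 1 TG mouse of 12 months.

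Klf2, a zinc finger factor that keeps naive lymphocytes quiescent, had a signal of 1296 in the replicate 1 and 1817 in the replicate 2 TG mouse of 12 months. The WT mice of 12 months had 1776 and 2387. At 2 months the Klf2 signal was 2285 and 2751 in TG mice and 2156 and 3095 in WT mice. Within each replicate the older TG mouse had the lowest signal of the 4 mice, although the replicate 2 TG mouse lay just above the replicate 1 WT mouse of the same age, so the groups overlapped. The log2 fold change at 12 months was -0.42 ± 0.27 (SE, n = 2 each; -0.45 within replicate 1 and -0.39 within replicate 2), and it missed the test (limma, adjusted p = 0.753).

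In order of their means, Klf2 levels were 1557 ± 368 in TG and 2081 ± 432 in WT mice of 12 months, then 2518 ± 329.6 in TG and 2625 ± 663 in WT mice of 2 months (SD, n = 2). In each neighbouring pair in this order the signals of the mice overlapped, and each SD includes the difference between the replicates. The Klf2 promoter window of RefSeq is shown with those of Foxo1 and Btg1, because their levels over the 8 arrays ran most alike among the pairs with Klf2. Pearson r with Klf2 was 0.920 for Foxo1 and 0.821 for Btg1 over 8 arrays, and 0.880 and 0.730 once each value was centred on its replicate mean. The points share arrays and their scaling, and the uncentred values also share the replicate difference. The windows hold the 250 bases before the annotated start, 5′ to 3′ on the gene's strand, in build GRCm38.p6. Capitals mark CACCC, a core of KLF sites, or GTAAACA, a core of forkhead sites, on either strand (GGGTG and TGTTTAC on the other strand).
Klf2, chr8:72318812-72319061, + strand: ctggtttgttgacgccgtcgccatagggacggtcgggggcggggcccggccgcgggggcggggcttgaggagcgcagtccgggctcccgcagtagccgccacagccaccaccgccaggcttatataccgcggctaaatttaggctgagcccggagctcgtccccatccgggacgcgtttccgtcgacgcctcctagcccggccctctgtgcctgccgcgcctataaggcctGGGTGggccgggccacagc
Foxo1, chr3:52268087-52268336, + strand: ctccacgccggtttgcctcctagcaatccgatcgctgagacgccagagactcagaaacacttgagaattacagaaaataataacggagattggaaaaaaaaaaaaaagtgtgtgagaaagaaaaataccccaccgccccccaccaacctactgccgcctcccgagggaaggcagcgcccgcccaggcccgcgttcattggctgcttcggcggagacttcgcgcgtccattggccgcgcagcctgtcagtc
Btg1, chr10:96616751-96617000, + strand: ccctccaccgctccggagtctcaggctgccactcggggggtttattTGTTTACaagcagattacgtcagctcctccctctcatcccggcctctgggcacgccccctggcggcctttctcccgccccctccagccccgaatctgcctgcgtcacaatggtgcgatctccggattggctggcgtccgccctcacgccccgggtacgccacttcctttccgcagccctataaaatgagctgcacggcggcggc
CACCC was found in 1 copy in the Klf2 window and in none of the other windows shown, and 52.0% of the 32851 mouse promoter windows of this length hold it. GTAAACA was found in 1 copy in the Btg1 window, and 3.17% of windows hold it. RefSeq windows were matched for 8 of the 9 genes, 10 windows in all, with S1pr1 not matched. Their A and T content ran from 21.6% to 56.0%, beside a median of 47.6% over all windows, and was 28.8% for Klf2. A match of letters is a description and not a binding site.

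Klf13, a related factor known for its action in activated T cells, showed the same order within each replicate at 12 months. The Klf13 signal was 609 and 973 in TG mice, against 819 and 1177 in WT mice. At 2 months TG mice had 678 and 1197 and WT mice 657 and 1446. Replicate 2 lay above replicate 1 in all 4 groups, by 0.77 on the log2 scale on average, and the groups overlapped at either age. The Klf13 log2 fold change at 12 months was -0.34 ± 0.43 (limma, adjusted p = 0.914; -0.42 within replicate 1 and -0.27 within replicate 2). A second Klf13 probe set had -0.25 and -0.22 within the replicates.

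Klf3 encodes a repressor of the same family that recruits the corepressor CtBP. Its signal was 1775 and 1039 in TG mice of 12 months, and 1682 and 1358 in WT mice of that age. The mice of 2 months had 1839 and 1319 (TG) and 1930.2 and 1376 (WT). Replicate 1 was the higher in every group, and the groups overlapped. The fitted difference at 12 months was -0.15 ± 0.31 (limma, adjusted p = 0.947), with 0.077 in replicate 1 and -0.38 in replicate 2. Of the 6 Klf3 probe sets that passed the filter, 3 were on average higher in replicate 2 and 3 were lower, so the direction of the replicate difference depended on the probe set.

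S1pr1, the egress receptor, varied least with the transgene at 12 months of the 9 genes. The S1pr1 signal was 545 and 659 in TG mice of 12 months, against 479 and 623 in WT mice. TG mice of 2 months had 581 and 531, and WT mice of 2 months had 570.0 and 635. Means ran from 551 ± 102 in WT mice of 12 months to 603 ± 46.1 in WT mice of 2 months (SD, n = 2), with 556 ± 35.7 in TG mice of 2 months and 602 ± 80.8 in TG mice of 12 months between them. The signals of neighbours in this order overlapped. The log2 fold change at 12 months was 0.13 ± 0.20 (limma, adjusted p = 0.932; 0.18 and 0.078 within replicates 1 and 2). Although Klf2 supports S1pr1 in mouse T cells, the fitted values of Klf2 and S1pr1 had opposite signs at 12 months, and neither passed the test.

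Il7r was high in a single spleen. The Il7r signal was 1820.2 in the replicate 1 and 687 in the replicate 2 TG mouse of 12 months, against 896 and 663 in the WT mice of 12 months. At 2 months it was 1129.6 and 922 in TG mice and 872 and 1029 in WT mice. Apart from the replicate 1 TG mouse of 12 months, the 7 other mice stayed between 663 and 1129.6. A second Il7r probe set repeated this, with 813 and 286 in TG and 257 and 212 in WT mice of 12 months, and in that probe set both TG mice lay above both WT mice. The Il7r log2 fold change at 12 months was 0.53 ± 0.40 (limma, adjusted p = 0.821), with 1.01 in replicate 1 and 0.051 in replicate 2. Without the TG mouse numbered 1 at 12 months the value was -0.16, and without the one numbered 2 it was 1.22.

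The spleen with high Il7r also had the highest summed T cell markers. The summed signal of 11 T cell markers, of 12 listed, was 11062 and 5786 in TG mice of 12 months and 4298 and 5477 in WT mice of 12 months. At 2 months the sum was 7507 and 6963 in TG mice and 6080.0 and 6126 in WT mice. The lowest signal of any of these markers on any array was 195. Of the 11 markers, 8 were highest in that spleen, among them Cd3d, a chain of the T cell receptor complex, with 1943 and 887 in TG and 619 and 1061 in WT mice of 12 months. Cd2 and Cd5 were highest in the replicate 2 TG mouse of 12 months. The coreceptor Cd4 ran the other way, with 271 and 258 in TG and 336 and 345 in WT mice of 12 months. Whether the share of T cells sets the Il7r signal was not tested.

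**Figure D2:**
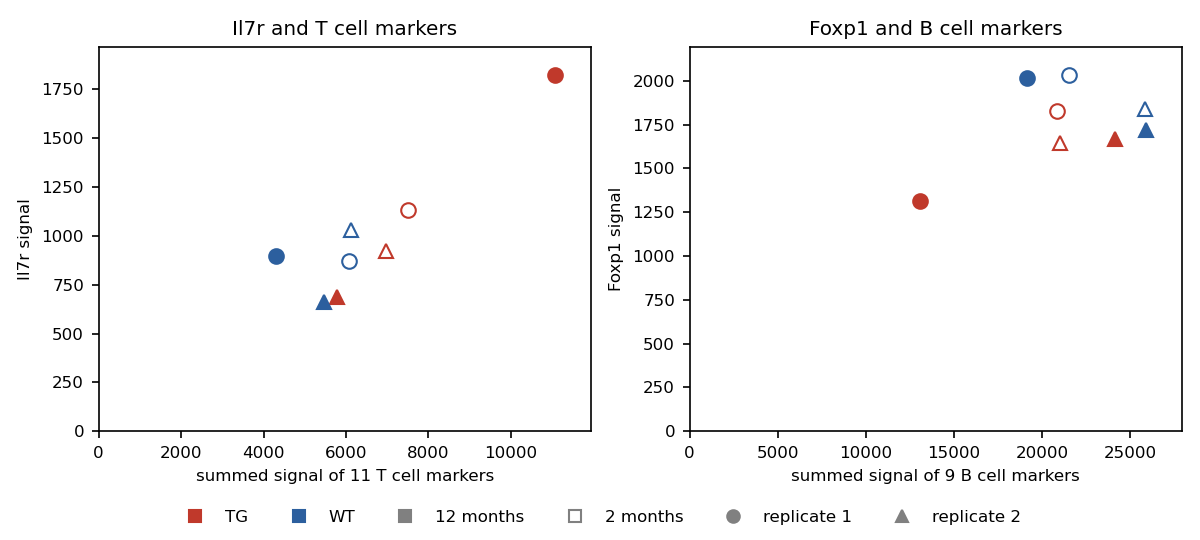
Each point is 1 mouse (TG red, WT blue, 12 months filled, 2 months open, circles replicate 1, triangles replicate 2), with the Il7r signal against the summed signal of 11 T cell markers on the left and the Foxp1 signal against that of 9 B cell markers on the right, all on linear axes from 0. The replicate 1 TG mouse of 12 months stands alone at 11062 for T cell markers and 1820.2 for Il7r, and at 13094 for B cell markers and 1312 for Foxp1.

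Foxo1, the forkhead factor upstream of Klf2 and Il7r in mouse lymphocytes, was lowest in the same spleen. The Foxo1 signal was 464 and 734 in TG mice of 12 months, against 641 and 746 in WT mice of 12 months. TG mice of 2 months had 789 and 792, and WT mice of 2 months 691 and 866. The groups overlapped at each age. The log2 fold change at 12 months was -0.24 ± 0.24 (limma, adjusted p = 0.882), with -0.45 in replicate 1 and -0.024 in replicate 2. Without the TG mouse numbered 1 at 12 months the value was 0.083, and without the one numbered 2 it was -0.56. All 3 Foxo1 probe sets that passed the filter were lower in TG mice within both replicates, with mean log2 differences from -0.24 to -0.16.

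Foxp1, a forkhead repressor needed for B cell development and for T cell quiescence in mice, had the most probe sets of the 9 genes. All of them had a lower mean in TG mice at 12 months. At 2 months 1 probe set was higher in TG mice, by a log2 difference of 0.10, and the others ran from -0.29 to -0.072. The brightest Foxp1 probe set had 1312 and 1668 in TG mice of 12 months, against 2013 and 1720.3 in WT mice of 12 months. At 2 months it had 1825 and 1646 in TG mice and 2029.9 and 1838 in WT mice. Both TG mice lay below both WT mice at either age, with a narrow gap between the nearest mice. The log2 fold changes were -0.33 ± 0.19 at 12 months (limma, adjusted p = 0.735; -0.61 and -0.044 within replicates 1 and 2) and -0.15 ± 0.19 at 2 months (adjusted p = 1.00; -0.15 and -0.16).

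All 8 Foxp1 probe sets passed the filter and all 8 had a lower mean in TG mice at 12 months, with log2 differences from -1.17 to -0.25. Of these, 7 were lower within both replicates, where 33.4% of all 22520 probe sets kept by the filter were. In 6 of the 8, both TG mice lay below both WT mice, as in 18.9% of all probe sets. At 2 months this held for 2 of the 8, where 7.83% of all genes, each by its brightest probe set, lay below. The share over all probe sets was not counted at that age. The probe set furthest down had 124 and 150.2 in TG mice and 294 and 366 in WT mice of 12 months. The second brightest had 1194 and 1097 in TG mice and 1950.4 and 1653 in WT mice of 12 months. Probe sets of a gene share its transcripts and the same mice, so they are not independent. When the probe sets of each gene were averaged, the Foxp1 log2 fold change was -0.56 and still missed the test (limma, adjusted p = 0.547).

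**Figure D3:**
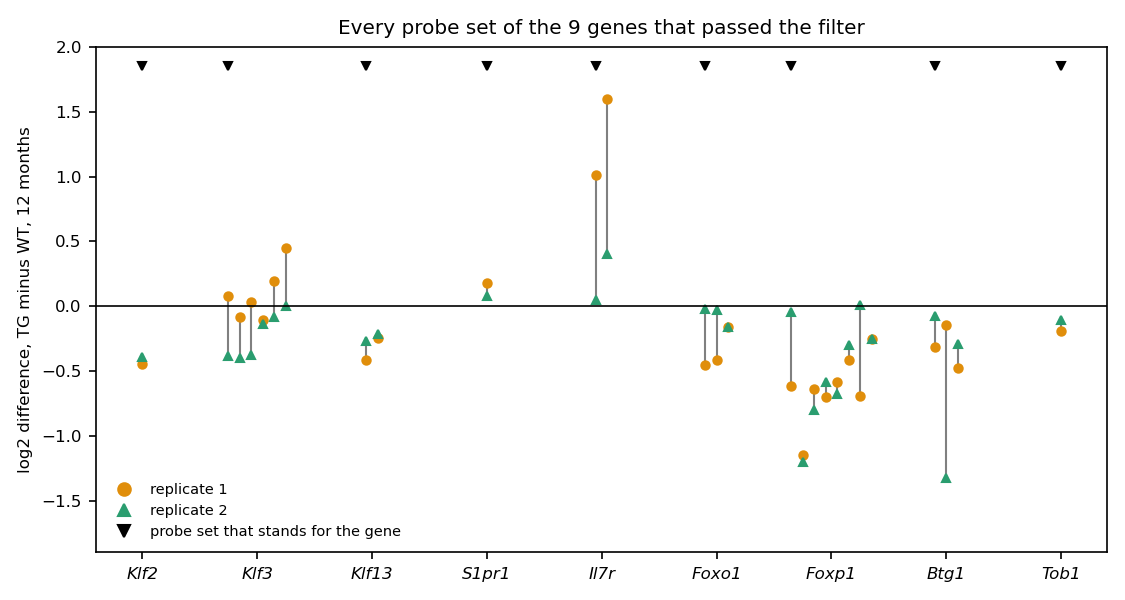
Log2 difference of TG minus WT mice of 12 months for each of the 27 probe sets of the 9 genes that passed the filter, with circles within replicate 1, triangles within replicate 2 and black marks over the probe set that stands for the gene. Of the 27 probe sets, 19 were lower and 3 were higher in TG mice within both replicates, and all 8 of Foxp1 had a mean below 0.

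The spleen with the lowest Foxp1 and Foxo1 also had the lowest B cell markers. The summed signal of 9 B cell markers, of 10 listed, was 13094 and 24159 in TG mice and 19144 and 25869 in WT mice of 12 months. The lowest signal of any of these markers on any array was 99.5. At 2 months the sum was 20857 and 21015 in TG mice and 21529 and 25834 in WT mice. The mouse with the lowest sum also had the lowest signals of Klf2, Klf13, Foxo1, Foxp1 and Btg1 among the 8 mice in the brightest probe set of each. Other probe sets differed: the second brightest of Foxp1 and of Foxo1 were lowest in the replicate 2 TG mouse of 12 months, and the second of Btg1 in the replicate 2 TG mouse of 2 months. The part of B cell content in these values was not tested.

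Btg1, which restrains proliferation and helps keep T cells quiescent in mice, gave 6009 and 7479.8 in TG mice of 12 months, against 7467 and 7874 in WT mice of 12 months. TG mice of 2 months had 7359 and 7300.3, and WT mice of 2 months 7177 and 9074. The groups overlapped at both ages. Its log2 fold change at 12 months was -0.19 ± 0.22 (limma, adjusted p = 0.901; -0.31 in replicate 1 and -0.074 in replicate 2). The 3 Btg1 probe sets that passed the filter were lower in TG mice within both replicates at 12 months, with means from -0.74 to -0.19. A second Btg1 probe set had 4389 and 3091 in TG mice and 6121 and 3780.3 in WT mice of 12 months, so there replicate 1 was the higher. In the brightest probe set replicate 2 was the higher at that age.

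Tob1, a relative of Btg1 that limits T cell activation, followed the replicate number more than genotype or age. The Tob1 signal was 326 and 186 in TG mice and 375 and 202 in WT mice of 12 months. At 2 months it was 485 and 159 in TG mice and 502 and 190.0 in WT mice. Replicate 2 lay below replicate 1 in every group, with a mean log2 difference of -1.11, which in size exceeded the absolute replicate difference of 99.2% of all genes. The difference between TG and WT mice at 12 months was -0.15 ± 0.60 (limma, adjusted p = 0.985; -0.19 and -0.11 within replicates 1 and 2).

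**Figure D4:**
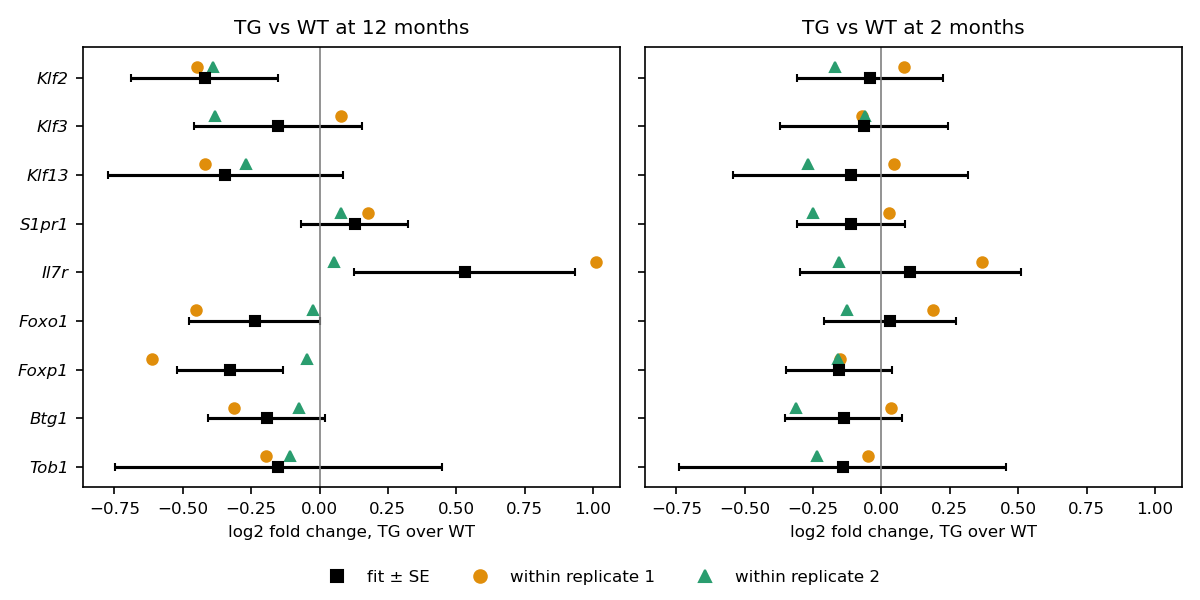
Log2 fold change of TG over WT mice at 12 months on the left and at 2 months on the right, with squares and bars for the fitted value ± SE, circles for the difference within replicate 1 and triangles for that within replicate 2. At 12 months Klf2 stands at -0.42 ± 0.27 and Il7r at 0.53 ± 0.40, and at 2 months all 9 fitted values lie between -0.15 and 0.11.

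At 2 months, ahead of tumours, the 9 genes differed little between TG and WT mice. Fitted values ran from -0.15 for Foxp1 to 0.11 for Il7r. Their median was -0.11 (0.036 in replicate 1 and -0.17 in replicate 2), beside 0.0089 over all genes. In 7 of 9 the value was below 0, as in 47.5% of all genes. The median ran from -0.14 to 0.030 when 1 array was left out, and without the replicate 2 WT mouse of 2 months 4 of 9 values were below 0. Klf3, Foxp1 and Tob1 were lower within both replicates, which is 3 of 9, against 24.2% of all genes, and none was higher within both, against 27.2%. The groups did not overlap for 1 of 9, Foxp1, where 7.83% of all genes lay below and 10.1% above. No gene of the 9 passed the test or had an unadjusted p under 0.05 (limma, adjusted p = 1.00 for all 9), beside 0% called and 0.393% with an unadjusted p under 0.05 among all genes (1.69% with the replicate block). The difference between the TG effects at 12 and at 2 months also passed the test for none (limma, adjusted p = 1.00), with an unadjusted p under 0.05 for 0 of 9 and for 1.9% of all genes. With the replicate block Klf2 had one (limma, adjusted p = 0.604), as had 8.14% of all genes. The difference was below 0 in 7 of 9 genes and in 56.3% of all genes. Klf2 and Klf13 were lower within both replicates, against 32.7% of all genes, and S1pr1 and Il7r were higher within both, against 22.8%. It was -0.38 ± 0.38 for Klf2 (-0.53 and -0.22 within replicates 1 and 2) and 0.42 ± 0.57 for Il7r (0.64 and 0.21). For Klf13 it was -0.23 ± 0.61 (-0.46 and -0.0013), so replicate 2 held almost no difference.

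Mice of 12 months were also compared with mice of 2 months within each genotype. These comparisons use the same arrays as those above, so they are no separate evidence. In TG mice Klf2 was lower at 12 months by a log2 difference of -0.70 ± 0.27 (-0.81 and -0.59 within replicates 1 and 2). It had the 1 unadjusted p under 0.05 among the 9 genes (limma, adjusted p = 1.00, and adjusted p = 0.0677 with the replicate block), where 4.72% of all genes had one and 0.00894% passed the test. With the block, Klf2 and Foxo1 had an unadjusted p under 0.05, as had 13.4% of all genes, and 0.188% passed the test. Foxo1 came next after Klf2, at -0.43 ± 0.24 (limma, adjusted p = 1.00; -0.75 and -0.11). For Klf2 and Foxo1 both mice of 12 months lay below both mice of 2 months, which is 2 of 9, against 17.4% of all genes, and no gene of the 9 lay above, against 10.3%. In 7 of 9 genes the value was below 0, as in 56.3% of all genes. Klf2, Klf3, Klf13 and Foxo1 were lower within both replicates, against 33.3% of all genes, and none was higher within both, against 21.6%.

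In WT mice Klf2 differed between 12 and 2 months by -0.33 ± 0.27 (limma, adjusted p = 1.00; -0.28 and -0.37 within replicates 1 and 2), and the groups overlapped. Of the 9 genes, 8 had a fitted value below 0, against 48.6% of all genes, and 5 were lower within both replicates, namely Klf2, Klf3, S1pr1, Foxo1 and Foxp1, against 26.3% of all genes, and none was higher within both, against 27.6%. In no gene of the 9 did the groups lie apart, where 10.9% of all genes lay below and 12.7% above. None had an unadjusted p under 0.05 (limma), beside 1.53% of all genes. With the replicate block Klf2 had one (limma, adjusted p = 0.959), as had 5.17% of all genes, and in either fit 0% of all genes passed the test.

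The partners of these genes were described from 7 lists in the same comparison of TG with WT mice at 12 months. No gene of any list passed the test at 12 or at 2 months. The counts of lower genes in each list stand beside 54.8% of all genes with a fitted value below 0 at 12 months. Among 10 measured KLF factors, of 14 listed, 6 were lower and 4 higher, with a median of -0.24. Klf4, which promotes exit from the cell cycle, had 149 and 178 in TG and 433 and 267 in WT mice of 12 months (-0.996 ± 0.25, limma adjusted p = 0.586). Klf7 had 246 and 249.6 in TG and 385 and 380.0 in WT mice (-0.60 ± 0.19, limma adjusted p = 0.586). Klf12 ran the other way, with 79.7 and 64.6 in TG and 48.0 and 34.7 in WT mice (0.62 ± 0.27, limma adjusted p = 0.642). Over the 10 genes, the TG mice lay wholly below the WT mice for 5 (Klf4, Klf6, Klf7, Klf9 and Klf11) and above for 1 (Klf12), against 19.9% and 14.3% of all genes.

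Egress and homing genes showed no common direction at 12 months, with 8 of 15 measured lower, 7 higher and a median of -0.018. Ccr7, the receptor that guides lymphocytes into T cell zones, had 412 and 386 in TG mice and 540.3 and 629.8 in WT mice of 12 months (-0.53 ± 0.17, limma adjusted p = 0.586). S1pr2, a receptor that holds B cells in follicles, had 359 and 128 in TG and 96.9 and 102 in WT mice (1.01 ± 0.42, limma adjusted p = 0.630). Spns2, a transporter that exports sphingosine 1-phosphate, had 182 and 277 in TG mice, against 309 and 347 in WT mice (-0.51 ± 0.23, limma adjusted p = 0.652). The S1pr2 difference lay mostly in replicate 1, at 1.73 against 0.29 within replicate 2.

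For the interleukin 7 receptor pathway, 7 of 12 measured genes were higher and 5 lower, with a median of 0.10. The feedback inhibitor Cish had 234 and 218 in TG and 182 and 156 in WT mice of 12 months (0.39 ± 0.19, limma adjusted p = 0.679). Socs1, another inhibitor of this type, had 109.7 and 104 in TG and 57.5 and 89.2 in WT mice (0.48 ± 0.26, limma adjusted p = 0.714). The receptor kinase Jak1 had 3160.1 and 2765 in TG mice, against 2044 and 2529 in WT mice (0.38 ± 0.21, limma adjusted p = 0.726). Both TG mice lay above both WT mice in these 3 of the 12 genes and below them in 3 others (Crlf2, Il7 and Stat5b), against 14.3% and 19.9% of all genes.

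FOXO pathway genes were lower in 12 of 15 measured, against 54.8% of all genes, with a median of -0.14. Of the 15, 11 were lower within both replicates, against 35.5% of all genes. The TG mice lay wholly below the WT mice for 4 of the 15 and above for 1, against 19.9% and 14.3% of all genes. Sesn1, a FOXO target that dampens growth signalling, had 714 and 1121 in TG and 1721 and 1317 in WT mice of 12 months (-0.74 ± 0.26, limma adjusted p = 0.591). Pik3ip1, an inhibitor of PI3 kinase, had 289.5 and 340.1 in TG and 447 and 442 in WT mice (-0.48 ± 0.17, limma adjusted p = 0.591). Sesn3 went the other way, with 1119 and 726 in TG and 621 and 663 in WT mice (0.48 ± 0.28, limma adjusted p = 0.735). Foxp4, the 1 measured relative of Foxp1 of 3 listed, had 143 and 205 in TG and 196 and 206 in WT mice (-0.21 ± 0.32, limma adjusted p = 0.930), and these groups overlapped.

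The deadenylase partners of Btg1 and Tob1 were split, with 6 of 13 lower, 7 higher and a median of 0.084. Cnot2 had 519.9 and 448 in TG and 740.1 and 524 in WT mice of 12 months (-0.36 ± 0.23, limma adjusted p = 0.748). Cnot11 had 309 and 253 in TG and 203 and 237 in WT mice (0.33 ± 0.21, limma adjusted p = 0.748). Among the last list, of other quiescence genes, 10 of 16 were lower and 6 higher, with a median of -0.14. Bach2, a repressor that holds B and T cells in a naive state, had 714 and 473 in TG and 1272 and 1026 in WT mice (-0.96 ± 0.23, limma adjusted p = 0.586, and adjusted p = 0.0618 with the replicate block). Cdkn1a, a cell cycle inhibitor, had 243 and 339 in TG and 188 and 149 in WT mice (0.72 ± 0.27, limma adjusted p = 0.605).

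**Figure D5:**
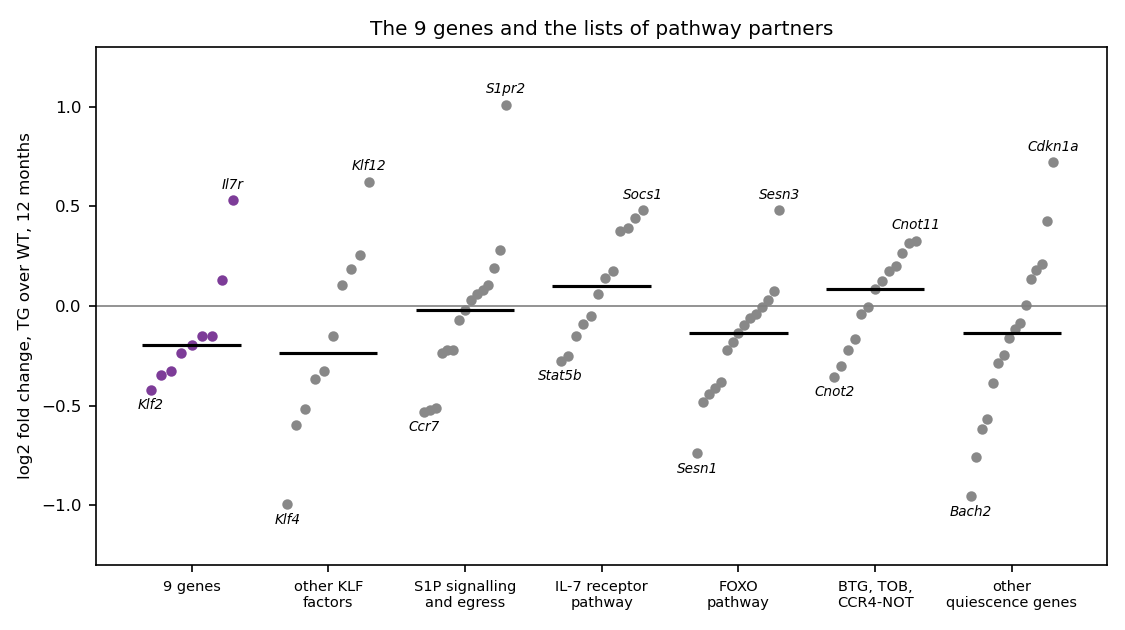
Log2 fold change of TG over WT mice of 12 months for the 9 genes and for the measured genes of 6 lists of pathway partners, with 1 point per gene, a bar for the median and names on the lowest and highest gene. Medians run from -0.24 for the other KLF factors to 0.10 for the interleukin 7 receptor pathway, and that of the 9 genes is -0.19.

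For each of the 9 genes, the genes with the most similar pattern over the 8 arrays were found among 10773 others. For Klf2 they were Asprv1 (Pearson r = 0.988) and Bud23 (0.982), and for Foxo1 Mtg2 (0.996) and Oaz2 (0.991). Foxp1 ran most like Rasl11b (0.965) and Notch3 (0.964), Btg1 like Zfyve1 (0.973) and Ttc4 (0.965), and Klf13 like Mink1 (0.982) and Hexdc (0.977). S1pr1 ran most like Kctd5 (0.989) and Nsun5 (0.958), and Il7r like Sypl (0.970) and Dld (0.964). Klf3 ran most like Mterf3 (0.994) and Fkbp3 (0.990), and Tob1 like Epc2 (0.992) and Zfp518a (0.992). All share the 8 arrays and the replicate difference. Each pair was picked for its high r among 10773 genes over 8 arrays, so the choice itself favours high values. After centring on the replicate means the values ran from 0.886 for Klf13 and Hexdc to 0.998 for Foxo1 and Oaz2. These use the same pairs and arrays and are no separate check.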

How the data were processed

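Spleen RNA of 8 mice was measured on 8 arrays, and groups were taken from the labels. The authors deposited linear intensities per probe set, made with GCOS 1.4 and MAS5 per the submitters' processing notes. The mean of each array without its lowest and highest 2% was equal, so each array was scaled by 1 factor. Symbols came from the platform annotation, updated through gene identifiers: 34945 of 45101 probe sets had 1 symbol and 932 had several. Probe sets under the median of the mean log2(signal + 16) were dropped, leaving 22520. The brightest stood for each gene (11189 genes).

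A model of 4 group means was fitted over the 8 arrays in R 4.3.3 by limma 3.58.1 (lmFit, eBayes with trend, 4 residual degrees of freedom, 2-sided, Benjamini-Hochberg over 11189 genes, threshold 0.05). The code was run on simulated data with independent noise and planted differences. Those data held no replicate difference, so they do not check the test at the spread of these arrays. The main fit had no block. Every pair of groups showed replicate differences that correlated across genes (r from 0.464 to 0.654), so the replicate number was treated as a batch and its block is the alternative. Nothing says that the mice were independent litters. The p-values and SEs rest on the spread between the 2 mice of a group, pooled over the 4 groups and moderated across genes. In the main fit this spread includes the replicate difference. For Tob1 the SE at 12 months was 0.60 without the block and 0.20 with it. The members and lists were chosen with earlier results of these data known. Named genes were the 9 members, up to 3 genes of smallest p per partner list, and the 2 most similar genes per member, passing over clones, predicted genes and receptor segments. Some listed genes without a probe set of their own symbol, or too dim, were not analysed here. Alternatives were the pseudocount (1, 64), the filter (none, 60th percentile), averaging the probe sets of a gene, quantile and cyclic loess scaling, no trend, no moderation, the replicate block and leaving out each array.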

Additional observations from a re-analysis of the deposited data

How the results depend on the processing

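In all 18 alternatives to the reported settings none of the 9 genes passed the test in any of the 5 comparisons (limma). The median of the 9 genes for TG against WT mice at 12 months stayed between -0.24 and -0.19 under the 10 settings that kept all arrays, and between -0.35 and -0.16 when 1 array was left out. Averaging the probe sets of a gene moved the value of Btg1 at 12 months to -0.44 and that of Foxp1 to -0.56. Of 810 recomputed values of single genes 746 kept their sign, and 57 of the 64 that did not came from leaving out 1 array, which also unbalances the replicate numbers. Their ranges over the arrays left out, for TG against WT mice at 12 months, were -0.53 to 0.23 for Klf3, -0.055 to 0.31 for S1pr1, -0.16 to 1.22 for Il7r, -0.56 to 0.083 for Foxo1 and -0.57 to 0.27 for Tob1. At 2 months they were -0.30 to 0.22 for Klf2, -0.31 to 0.18 for Klf3, -0.67 to 0.45 for Klf13, -0.038 to 0.25 for Il7r, -0.13 to 0.19 for Foxo1, -0.31 to 0.030 for Btg1 and -0.90 to 0.62 for Tob1. For the difference of the TG effects they were -0.47 to 0.30 for Klf3, -0.79 to 0.33 for Klf13, -0.27 to 1.12 for Il7r, -0.59 to 0.052 for Foxo1, -0.22 to 0.11 for Btg1 and -0.77 to 0.75 for Tob1. For 12 against 2 months in TG mice they were -0.58 to 0.19 for Klf3, -0.63 to 0.18 for Klf13, -0.028 to 0.24 for S1pr1, -0.56 to 0.82 for Il7r, -0.29 to 0.029 for Btg1 and -0.93 to 0.59 for Tob1. In WT mice they were -0.35 to 0.13 for Klf3, -0.55 to 0.57 for Klf13, -0.32 to 0.049 for S1pr1, -0.32 to 0.0018 for Foxo1, -0.17 to 0.059 for Foxp1, -0.24 to 0.10 for Btg1 and -0.83 to 0.50 for Tob1, and the median of the 9 genes ran from -0.24 to -0.066, with the lowest value when the WT mouse numbered 1 at 2 months was left out. The other 7 sign changes came with averaged probe sets (at 2 months 0.019 for Klf3 and -0.071 for Foxo1, and for age in WT mice -0.019 for Klf13, 0.086 for Foxp1 and 0.14 for Btg1) and, for the difference of effects in Tob1, with quantile (0.017) and cyclic loess scaling (0.036). The cause was not tested.

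Over all genes, the number past the test with the replicate block was 5 for TG against WT mice at 12 months, against 0 without it, and 21 for 12 against 2 months in TG mice, against 1 without it. The block changed no call among the 9 genes. That 1 gene was lost with log2(signal + 1) and with no moderation (0 each), and no moderation gave 1 gene for the difference of effects. Leaving out 1 array gave 0 to 7 genes at 12 months (7 without the replicate 2 TG mouse), 0 to 2 at 2 months, 0 to 4 for age in TG mice and 0 to 4 for age in WT mice. With 2 mice a group, differences of the size seen in the 9 genes passed the test neither with the block nor without it. Their smallest adjusted p with the block was 0.0677, for Klf2 in TG mice of 12 against 2 months (limma).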

Other observations

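Markers of spleen cell types also differed between TG and WT mice of 12 months, none past the test (limma, smallest adjusted p = 0.232). With the replicate block 2 of 9 B cell markers passed it (limma, smallest adjusted p = 0.0255), against 0.0447% of all genes. For 12 against 2 months in TG mice 2 also passed (limma, smallest adjusted p = 0.0182, against 0.419 without the block), against 0.188% of all genes. In TG against WT mice of 12 months 6 of the 9 were lower within both replicates, against 35.5% of all genes. Within replicate 2, Cd79a (6092 against 5105), Cd79b (4629 against 4573) and Blk (3183 against 1636) were higher in the TG mouse. No marker of the other 10 lists passed with the block in any comparison, and their part in the values of the 9 genes was not tested. In TG against WT mice of 12 months the median log2 fold change was 0.70 for T cell markers (10 of 11 higher), 0.50 for NK cell markers (2 of 4 higher), 0.61 for proliferation genes (6 of 6 higher) and 0.92 for neutrophil markers (7 of 7 higher). It was -0.40 for B cell markers (8 of 9 lower), -0.53 for macrophage and monocyte markers (6 of 7 lower), -0.49 for dendritic cell markers (5 of 5 lower), -0.32 for megakaryocyte and platelet markers (4 of 4 lower) and -0.10 for plasma cell markers (5 of 5 lower). Erythroid markers stood at -0.027 (2 of 4 lower) and exocrine pancreas genes at 0.38 (3 of 4 higher). Within the replicates the T cell median was 1.15 and -0.11, the neutrophil median -0.072 and 1.93, and the proliferation median 0.70 and 0.53. The medians of the NK (1.10 and -0.088), megakaryocyte (-0.68 and 0.038), plasma cell (0.064 and -0.35), erythroid (-0.29 and 0.29) and exocrine pancreas lists (0.91 and -0.0056) also had opposite signs in the 2 replicates. Those of B cell (-0.74 and -0.30), macrophage (-0.998 and -0.35) and dendritic cell markers (-0.49 and -0.63) did not. The summed signal of 4 exocrine pancreas genes was 8079 in the replicate 1 WT mouse of 2 months and between 442 and 648 in the 7 other mice.

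The second Il7r probe set had a log2 difference of 1.60 within replicate 1 and 0.41 within replicate 2 at 12 months, beside 1.01 and 0.051 for the brightest. For Foxo1, 1 probe set was lower in replicate 2 by a log2 difference of -0.62 on average, whereas the brightest Foxo1 probe set was higher there by 0.30.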
